A study of Mus musculus with 32 samples.

Results

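A set of 10 cell adhesion genes was followed through the LPS response of mouse macrophages with and without the nuclear receptor Nur77. They comprised 9 integrin subunits, the α chains Itgam, Itgax, Itgal, Itga4, Itga5 and Itgav and the β chains Itgb1, Itgb2 and Itgb7, together with Icam1, a membrane ligand of the β2 integrins. The 10 genes were taken by symbol from the 25067 genes of the count table, each represented by its transcript with the highest mean count, and all 10 were among the 11181 genes tested. The libraries came from bone marrow-derived macrophages (BMDMs), grown for 7 days with L929-conditioned medium from femurs and tibias of male C57Bl6/J mice of 6 to 12 weeks. Wild-type littermates (BMDM-WT) and whole-body Nur77 knockouts (BMDM-Nur77-KO) were compared. The knockouts descended from a cross of mice with Cre under a CMV promoter and mice with a loxP-flanked Nr4a1 locus, and no longer carried Cre, although their genotype label reads "cre". LPS was given at 100 ng/ml, and cells of each genotype were collected before it (0 h) and 1, 5 and 18 h later, with 4 libraries in each of the 8 groups. The libraries were replicate cultures, the number of mice behind them was not given in the sources used here, and p-values therefore measure the spread between these cultures only.

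Integrins are membrane receptors made of an α and a β chain, and a cell can place on its surface only those pairs for which it makes both chains. The β2 chain Itgb2 (CD18) pairs with Itgal (CD11a), Itgam (CD11b), Itgax (CD11c) and Itgad (CD11d) on leukocytes, where these receptors hold cells to endothelium and bind complement-coated particles. Itgb1 pairs with Itga4 and Itga5, which bind VCAM1 and fibronectin, Itgb7 pairs with Itga4 in cells that home to the gut, and Itgav pairs with several β chains to bind vitronectin, osteopontin and latent TGFβ. LPS, a wall component of Gram-negative bacteria, activates macrophages through TLR4.

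In GRCm38.p6 the β2 partners are annotated as Itgal at chr7:127296139-127335137, Itgam at chr7:128062640-128118491 and Itgax at chr7:128129526-128150657. The other members are Itga4 at chr2:79255426-79333114, Itgav at chr2:83722303-83806917, Itga5 at chr15:103344286-103366791, Itgb7 at chr15:102215994-102233405, Itgb1 at chr8:128685654-128733579, Itgb2 at chr10:77530329-77565708 and Icam1 at chr9:21015940-21028814. Itgal, Itgam and Itgax lay in a cluster of β2-partner genes on chromosome 7, in which the gap between Itgam and Itgax was 11.0 kb and that between Itgax and Itgad 23.3 kb. The promoters of these 2 close neighbours are shown because their transcripts moved apart in BMDM-Nur77-KO, and that of Icam1 because it had the widest range of the 10 genes. Each line gives the 250 bases before the start site in RefSeq's table for GRCm38.p6, on the plus strand, with matches to the searched motifs in capitals.
Itgam (chr7:128062390-128062639): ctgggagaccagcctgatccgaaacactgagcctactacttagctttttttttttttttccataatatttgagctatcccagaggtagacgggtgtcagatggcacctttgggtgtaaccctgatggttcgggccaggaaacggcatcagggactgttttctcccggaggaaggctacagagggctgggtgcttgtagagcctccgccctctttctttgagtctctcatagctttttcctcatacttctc
Itgax (chr7:128129300-128129549): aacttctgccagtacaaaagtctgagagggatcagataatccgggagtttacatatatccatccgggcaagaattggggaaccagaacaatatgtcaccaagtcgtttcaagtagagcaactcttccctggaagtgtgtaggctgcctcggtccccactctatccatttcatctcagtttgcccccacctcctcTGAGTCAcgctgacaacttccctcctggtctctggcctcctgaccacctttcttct
Icam1 (chr9:21015690-21015939): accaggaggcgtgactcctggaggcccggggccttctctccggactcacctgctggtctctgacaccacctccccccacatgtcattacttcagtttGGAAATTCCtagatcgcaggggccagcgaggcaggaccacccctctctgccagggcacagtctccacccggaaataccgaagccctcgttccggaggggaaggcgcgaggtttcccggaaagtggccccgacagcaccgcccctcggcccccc
The motifs were searched as exact letters on both strands in windows of 250 bases before to 50 bases after the start site, namely the NF-kB motif GGAANTTCC, a second NF-kB motif of GGG and TTTCC with any 2 bases between, the AP-1 motif TGANTCA, the PU.1 motif GAGGAAGT and the Nur77 monomer element AAAGGTCA. Icam1 held GGAAATTCC, which matches the motif on both strands and whose first base lay at position -153 from the start, and 0.928% of the 32851 promoters in the table held a match to the same motif. Itgax held the AP-1 letters TGAGTCA at position -56, as 7.81% of all promoters did for that motif. Itgav and Itgb7 held the reverse complement of the PU.1 motif (3.2% of all promoters), at positions -9 and 1. No match was found in the windows of Itgam, Itga4, Itga5 and Itgb1, and the Nur77 element (1.51% of all promoters) and the second NF-kB motif (1.63%) were found in none of the 8 windows searched. Itgal and Itgb2 are not analysed here for promoter sequence.

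Counts of the kept transcripts summed to between 8742362 and 15780926 per library, with a median of 11847140. Nr4a1, which encodes Nur77, had 7.90 ± 1.71 RPKM in BMDM-WT and between 1.78 and 2.79 RPKM in BMDM-Nur77-KO before LPS, where RPKM is the count per kilobase of transcript scaled to library size. At 1 h Nr4a1 stood between 144 and 195 RPKM in BMDM-WT and between 58.9 and 98.4 RPKM in BMDM-Nur77-KO, so that reads on this transcript were reduced and not absent, with a log2 fold change of -1.90 (adjusted p = 1.6e-08) at 0 h and -1.20 (adjusted p = 1.9e-06) at 1 h. From 5 h on no library held more than 9 counts of it. The 8 macrophage markers summed to between 10615 and 17687 CPM, counts scaled to library size without the length, and none was at 0, whereas the 9 neutrophil markers summed to between 18.1 and 52.4 CPM, with Ly6g and Elane at no more than 2 counts in any library and S100a8 at up to 208. Of the dendritic cell markers Flt3, Cd209a and Siglech reached at most 5 counts, Xcr1 194, Clec9a 201 and Sirpa 54798. The T and NK cell markers summed to at most 38.5 CPM, which at 5 h was nearly all Lck (29.0 and 32.2 CPM), and the other 6 had group means of at most 0.61 CPM. A gain or loss of a transcript in these bulk samples can come from more or fewer cells of a kind or from a change per cell, which cannot be told apart.

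In all, 3 libraries stood apart from the rest of their group towards AT-rich transcripts, by over 0.5 in the following measure. These were knockout replicate 1 at 5 h, knockout replicate 4 at 18 h and wild-type replicate 3 at 18 h. In them transcripts under 42% GC stood above those over 55% GC by 1.03, 0.743 and 0.532 on the log2 scale, relative to the group mean. Replicates 3 and 4 of the 5 h knockouts leaned the other way, by -0.491 and -0.567. The members moved with this measure by their own composition. Itga4, Itgav and Itgb1, with 41.1%, 43.5% and 44.8% GC, were high in these 3 libraries, by between 0.28 and 0.69 above their group mean on the log2 CPM scale. Itga5, Itgal, Icam1, Itgb7 and Itgb2, with 53.1% to 58.0% GC, were low in all 3. Itgam and Itgax, at 48.9% and 51.6% GC, deviated by at most 0.12 in either direction, except that Itgax deviated by -0.37 in the 5 h library and by -0.14 in the 18 h library of the knockouts. Results that changed their call without these 3 libraries are given with and without them. The limit was drawn on the AT-rich side, and leaving out replicate 4 of the 5 h knockouts as well gave 5, 4, 4 and 5 members called between the genotypes at 0, 1, 5 and 18 h, in place of 3, 3, 1 and 3 with all libraries. Of all genes tested, 1558 were then higher and 1808 lower at 0 h, in place of 708 and 709. The numbers were 783 and 759 at 1 h, in place of 389 and 342, and 1682 and 1324 at 18 h, in place of 1313 and 1113. Only at 5 h were they smaller, at 1268 and 1136 in place of 1530 and 1196.

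**Figure D1:**
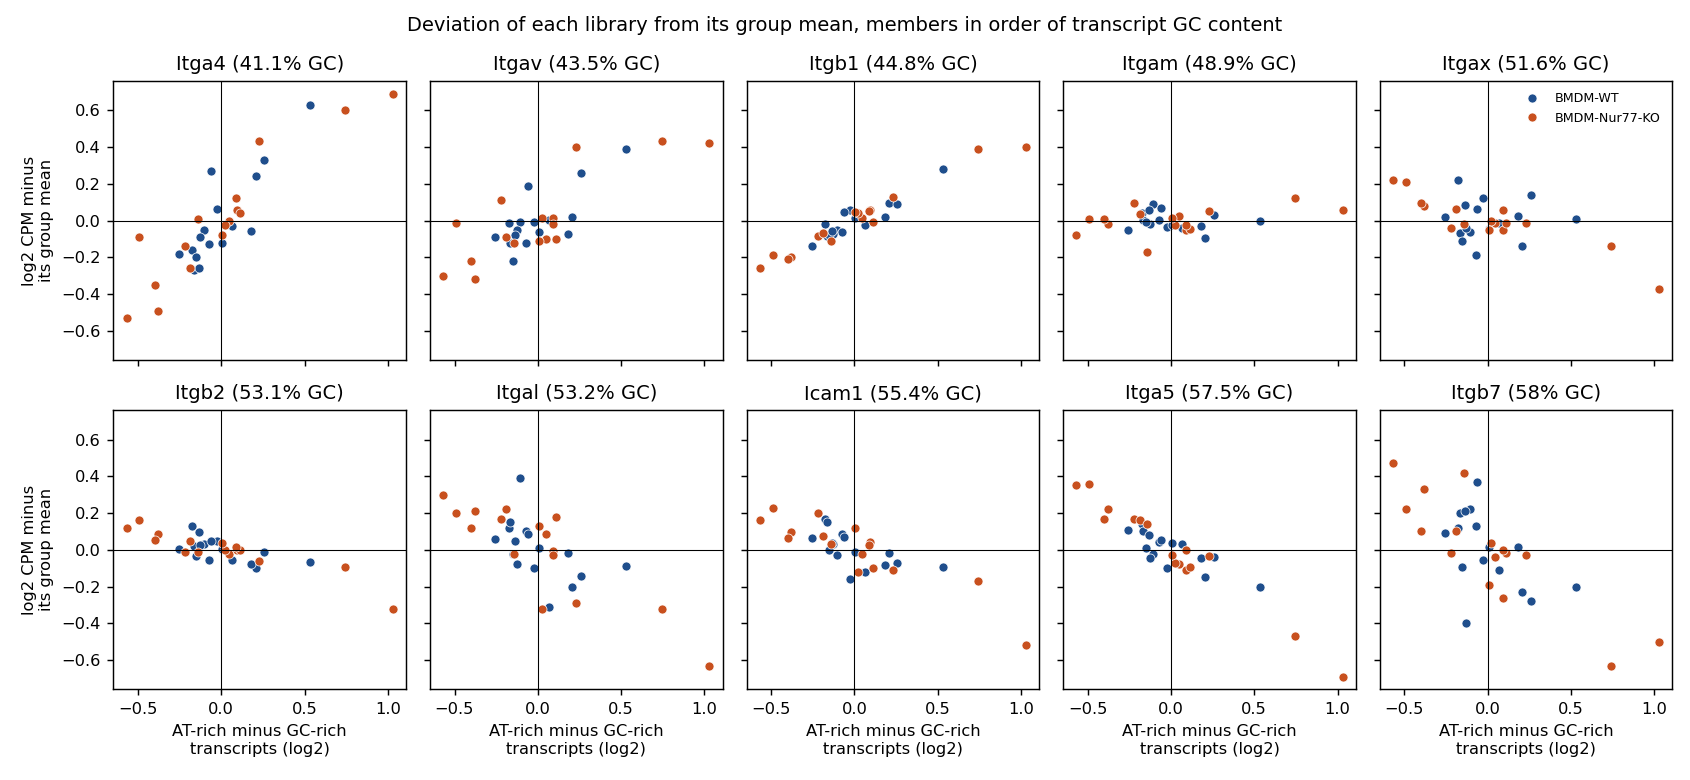
Each panel is a member, in order of the GC content of its kept transcript, and each point is 1 of the 32 libraries. The x axis gives how far AT-rich transcripts stood above GC-rich ones in that library (log2, relative to the group mean) and the y axis the member's log2 CPM minus its group mean, which rises with x for Itga4, Itgav and Itgb1 and falls with x for Itga5, Icam1 and Itgal.

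Before LPS the members spanned a wide range of transcript levels per length in BMDM-WT. Itgb2 was the highest at 389 ± 27.7 RPKM (SD, n = 4 here and below), followed by Itgam at 238 ± 13.4 and Itgb1 at 211 ± 9.52. Itgax, Icam1, Itga4, Itga5 and Itgav stood between 14.9 and 42.5 RPKM. Itgal, the α chain of the lymphocyte integrin LFA-1, was near the bottom at 2.72 ± 0.624 RPKM, and Itgb7 was at 2.46 ± 0.358 RPKM, which corresponded to few counts, since Itgb7 held between 18 and 244 counts per library over the series. Across the 8 groups the highest mean exceeded the lowest by 34.1-fold for Icam1, 31.5-fold for Itgal, 13.4-fold for Itgax and 12.5-fold for Itgav. Itga5, Itga4 and Itgb7 spanned 8.32-fold, 7.64-fold and 6.05-fold, and Itgam, Itgb1 and Itgb2 spanned 2.40-fold, 2.02-fold and 1.52-fold.

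**Figure D2:**
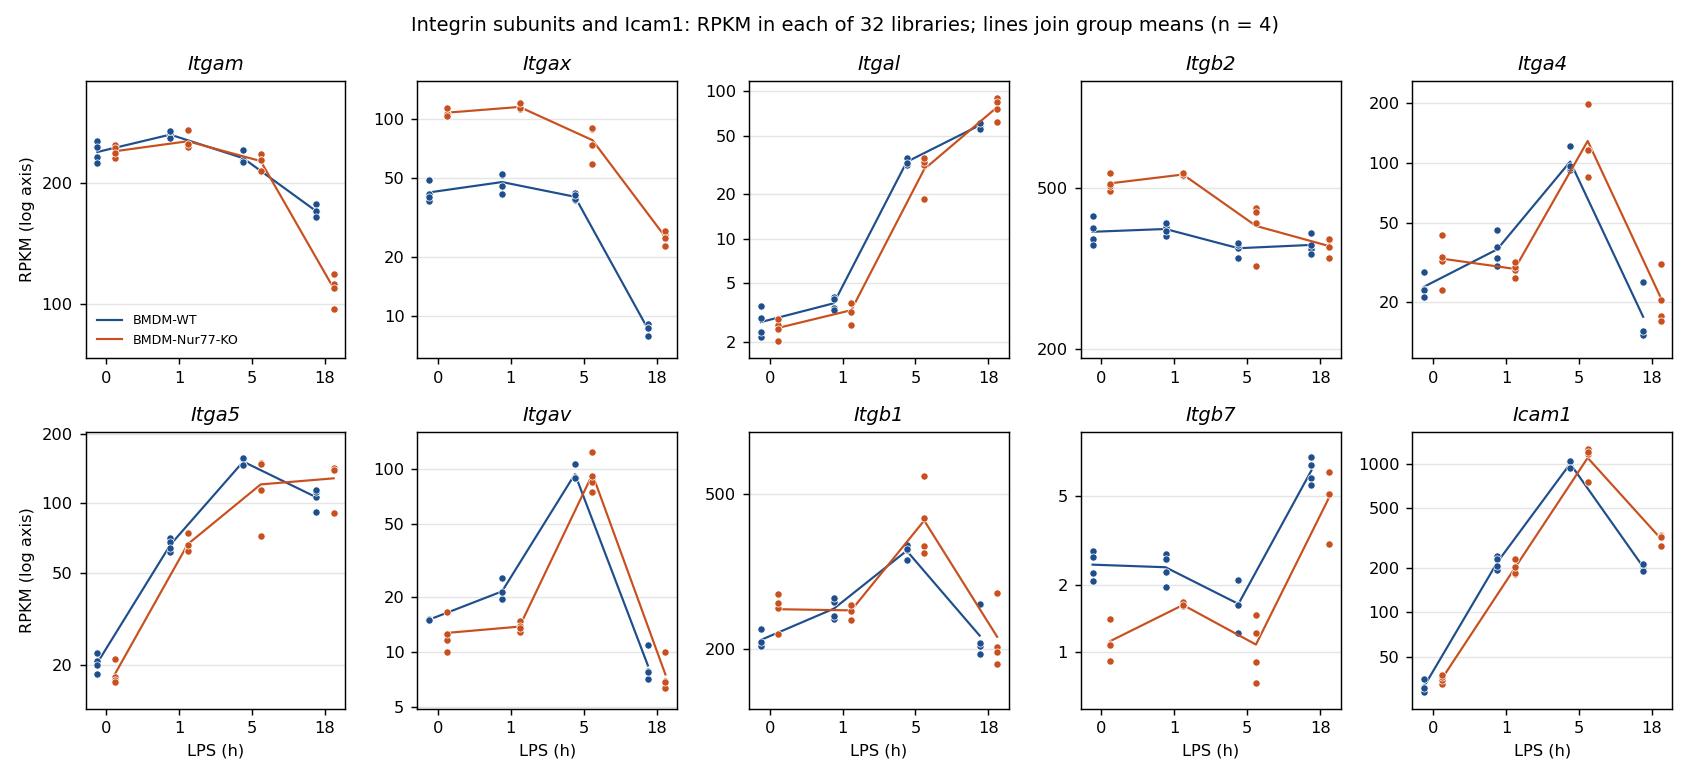
RPKM on a log axis against hours of LPS (not to scale in time) for each member, with a point for each library and a line through the group means (n = 4). Itgax of BMDM-Nur77-KO lay above that of BMDM-WT at all 4 times, Itgam separated at 18 h, and Itgal and Icam1 rose by more than an order of magnitude.

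The genotypes were compared at each time with edgeR's quasi-likelihood test, and a gene was called at a Benjamini-Hochberg adjusted p under 0.05 over all genes tested. Before LPS, Itgax and Itgb2 were higher in BMDM-Nur77-KO and Itgb7 was lower, so that 2 of 10 members were called higher, against 6.33% of all genes tested, and 1 lower, against 6.34%. At 1 h Itgax and Itgb2 were again higher and Itgav was lower, where 3.48% of all genes were called higher and 3.06% lower. At 5 h Itgax alone was called, where 13.7% of all genes were higher and 10.7% lower. At 18 h Itgax and Icam1 were higher and Itgam was lower, where 11.7% and 9.95% of all genes were called in those directions. Counting only differences over 0.58 on the log2 scale, 2, 2, 1 and 3 members were called at the 4 times, against 4.74%, 2.84%, 8.78% and 9.94% of all genes. The median log2 fold change over the 10 members was 0.09, -0.09, 0.07 and 0.12, beside medians over all genes between -0.03 and 0.02. These counts of 1 to 3 in 10 rest on few genes and are read here gene by gene.

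**Figure D3:**
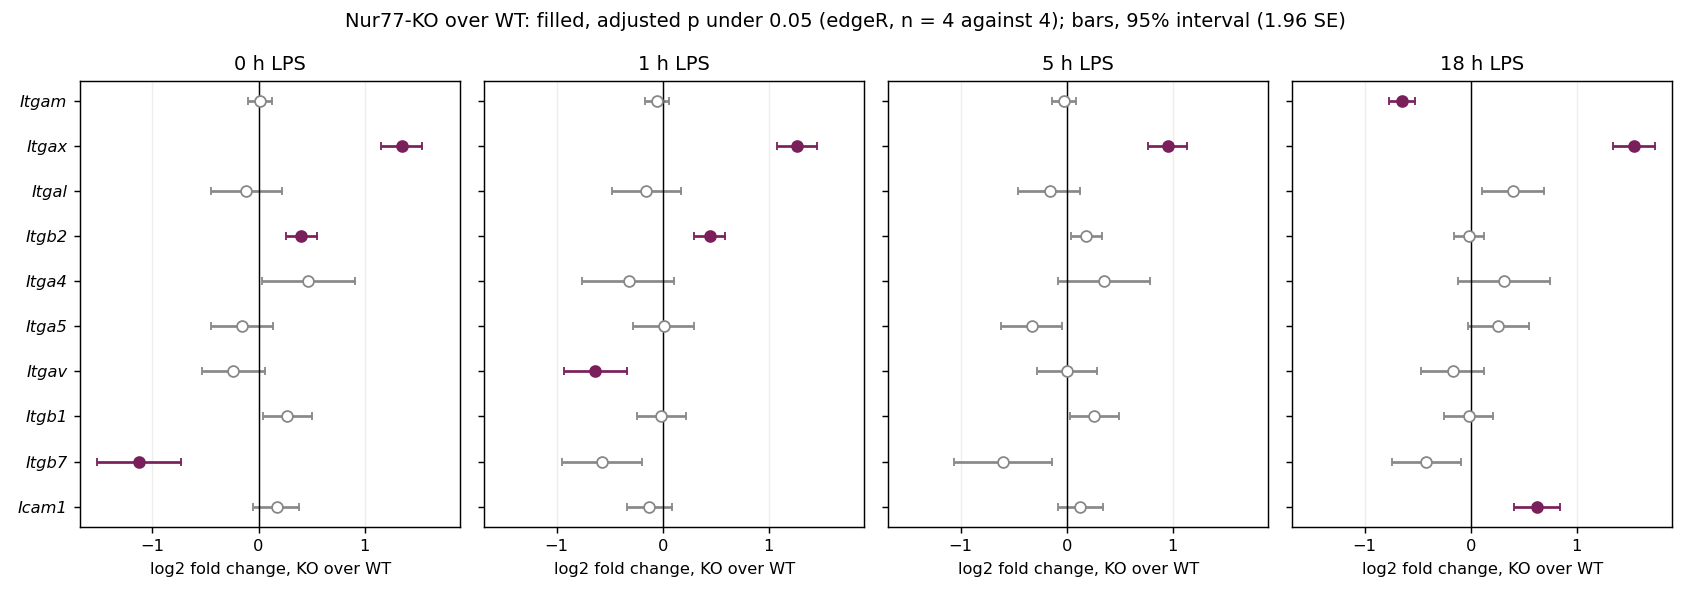
Log2 fold change of BMDM-Nur77-KO over BMDM-WT for each member at 0, 1, 5 and 18 h of LPS, with 95% intervals as bars and filled points for an adjusted p under 0.05 (edgeR, 4 against 4 libraries). Itgax lay to the right at every time, while Itgam moved left and Icam1 right at 18 h.

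Itgax, the α chain known as CD11c, differed most between the genotypes. Before LPS its 4 BMDM-WT libraries held 41.9, 38.3, 40.4 and 49.2 RPKM and the 4 BMDM-Nur77-KO libraries 107, 106, 104 and 114 RPKM. The groups were far apart, with a log2 fold change of 1.35 (SE 0.10, adjusted p = 1.5e-11), and they remained so at 1 h with a log2 fold change of 1.27 (adjusted p = 6e-11). At 5 h the BMDM-WT libraries stood between 39.0 and 42.2 RPKM and the BMDM-Nur77-KO libraries at 59.5, 74.3, 88.9 and 90.0 RPKM, the lowest being the library with the strongest composition shift. The log2 fold change was 0.96 (adjusted p = 1.9e-08), and 1.06 (adjusted p = 1.3e-11) without the 3 libraries that stood apart. By 18 h Itgax had dropped in both genotypes, to 7.96, 9.11, 8.66 and 8.73 RPKM in BMDM-WT and 26.2, 26.9, 24.9 and 22.8 RPKM in BMDM-Nur77-KO. The genotype difference was then 1.54 (SE 0.10, adjusted p = 7.2e-13) on the log2 scale. Relative to 0 h, Itgax fell by 2.31 on the log2 scale in BMDM-WT (adjusted p = 1.3e-18) and by 2.12 in BMDM-Nur77-KO (adjusted p = 3.9e-18). The test of the difference between these 2 responses gave 0.19 (95% interval -0.08 to 0.46, adjusted p = 0.49), so that a genotype effect on the fall was not detected. Of the 8 dendritic cell markers, a list without Itgax, Sirpa made up nearly all of the sum (3049 CPM in BMDM-WT and 2944 CPM in BMDM-Nur77-KO before LPS), and macrophages express it as well. The others were under 1 CPM before LPS, among them Xcr1 at 0.368 and 0.774 CPM and Zbtb46 at 0.391 and 0.54 CPM. At 18 h Clec9a stood at 3.51 CPM in BMDM-WT and 12.2 CPM in BMDM-Nur77-KO. Neutrophil markers summed to 18.1 to 30.2 CPM in BMDM-WT and 27.1 to 35.3 CPM in BMDM-Nur77-KO before LPS, and to 28.5 to 37.9 and 43.8 to 52.4 CPM at 1 h, when the ranges did not overlap. The part of these markers in the Itgax and Itgb2 differences was not tested. Only BMDM-Nur77-KO showed a call at 5 h, where Itgax fell by 0.49 on the log2 scale (adjusted p = 4.2e-05), and the test of the difference between the genotypes gave an adjusted p of 0.12.

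Itgam, the α chain CD11b by which macrophages are commonly sorted, did not separate the genotypes until late. Its BMDM-WT libraries held 231, 223, 253 and 245 RPKM before LPS and its BMDM-Nur77-KO libraries 247, 243, 230 and 236 RPKM, with a log2 difference of 0.01 (95% interval -0.10 to 0.13). The levels overlapped at 1 and 5 h as well. In BMDM-Nur77-KO the change at 5 h of LPS was -0.10 (adjusted p = 0.12), and -0.13 (adjusted p = 0.048) without the 3 libraries that stood apart. At 18 h BMDM-WT held 169, 177, 170 and 164 RPKM, whereas BMDM-Nur77-KO held 112, 110, 97.2 and 119 RPKM. Every BMDM-Nur77-KO library lay below every BMDM-WT library, with a log2 fold change of -0.65 (SE 0.06, adjusted p = 1.2e-09). The sum of the macrophage markers was lower as well at 18 h, at 13431 to 13931 CPM in BMDM-WT and 10615 to 12253 CPM in BMDM-Nur77-KO. Adgre1 (3759 against 2879 CPM), Lyz2 (5021 against 4285 CPM) and Csf1r (1144 against 746 CPM) were among the lower ones, Mertk stood at 317 against 514 CPM and Cd14 at 289 against 288 CPM, and their part in the Itgam difference was not tested. By 18 h LPS had lowered Itgam in BMDM-WT (log2 fold change -0.49, adjusted p = 1.9e-08) and more so in BMDM-Nur77-KO (log2 fold change -1.15, adjusted p = 6.7e-17). This difference in response was itself called, at -0.66 (SE 0.09, adjusted p = 2.5e-06), in a comparison where 9.43% of all genes were called in either direction.

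Itgb2, the common β chain of both, was the most even of the members. It held 362 to 425 RPKM in BMDM-WT and 491 to 544 RPKM in BMDM-Nur77-KO before LPS, and 381 to 409 against 536 to 544 RPKM at 1 h. Both differences were called, with log2 fold changes of 0.40 (adjusted p = 0.00031) and 0.45 (adjusted p = 0.00012). The BMDM-Nur77-KO level then came down to the wild-type level. At 18 h the ranges were 344 to 386 and 336 to 373 RPKM, with a log2 difference of -0.02 (95% interval -0.16 to 0.13). Itgb2 fell in knockout cells by 5 h (log2 fold change -0.37, adjusted p = 4.9e-05) and at 18 h (-0.54, adjusted p = 1.6e-07), while in BMDM-WT it gave -0.15 and -0.12 with adjusted p of 0.063 and 0.17. The difference in the 18 h response was called at -0.42 (adjusted p = 0.0071). At 5 h the genotype difference of 0.18 (adjusted p = 0.066) was 0.28 (adjusted p = 0.00081) without the 3 libraries that stood apart.

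Itgal, the α chain CD11a of LFA-1, took the opposite course to Itgax. It held 2.14, 2.31, 3.52 and 2.90 RPKM in BMDM-WT before LPS and 57.9, 60.9, 55.3 and 61.3 RPKM at 18 h. In BMDM-Nur77-KO it held 2.01, 2.61, 2.45 and 2.86 RPKM before LPS and 90.4, 84.2, 76.2 and 61.8 RPKM at 18 h. The rise had begun at 5 h (31.5 to 35.2 RPKM in BMDM-WT and 18.5 to 35.4 in BMDM-Nur77-KO) and reached log2 fold changes of 4.43 (adjusted p = 7.2e-20) and 4.95 (adjusted p = 6.2e-21). At 18 h all BMDM-Nur77-KO libraries lay above the BMDM-WT libraries, the closest pair at 61.8 and 61.3 RPKM, and the log2 difference of 0.40 (SE 0.15) had an adjusted p of 0.051. The lowest BMDM-Nur77-KO library was replicate 4, which stood apart in composition, and without the 3 such libraries the difference was 0.47 (adjusted p = 0.0013). No genotype difference in Itgal was called at 0, 1 or 5 h.

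The balance among the β2 partners shifted with time and genotype. Itgam, Itgax, Itgal and Itgad were summed per length, and the share of each in the sum is a description with no test. Before LPS Itgam made up 84.0% ± 1.2 of the sum in BMDM-WT and Itgax 15.0% ± 1.24, whereas in BMDM-Nur77-KO the shares were 68.4% ± 1.09 and 30.8% ± 0.993. Itgal took less than 1.2% in each of these libraries. At 18 h Itgal had reached 24.7% ± 1.03 of the sum in BMDM-WT and 36.6% ± 4.22 in BMDM-Nur77-KO. Itgax had dropped to 3.62% ± 0.161 and 11.8% ± 0.615, and Itgam stood at 71.6% ± 1.07 and 51.5% ± 4.62. The ranges of the genotypes did not overlap for any of these 3 shares at 18 h. The shares depended on how transcripts were counted, since Itgal has 4 transcript rows of nearly equal count, Itgam 2 and Itgax 3, and a sum over rows counts shared reads again. With rows summed, Itgal took 40.1% in BMDM-WT and 55.1% in BMDM-Nur77-KO at 18 h, Itgam 57.9% and 38.9%, and Itgax 5.94% in BMDM-Nur77-KO and less in BMDM-WT, so that Itgal and not Itgam was the larger in BMDM-Nur77-KO. The direction between the genotypes was the same for all 3 shares at 18 h by either count. Itgam transcripts per Itgax transcript went from 5.64 to 19.8 in BMDM-WT and from 2.22 to 4.37 in BMDM-Nur77-KO between 0 and 18 h. Itgad, the remaining partner, took at most 0.127% of the sum in any library. The sum of the 4 α chains relative to Itgb2 lay between 0.557 and 0.978 in all libraries.

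**Figure D4:**
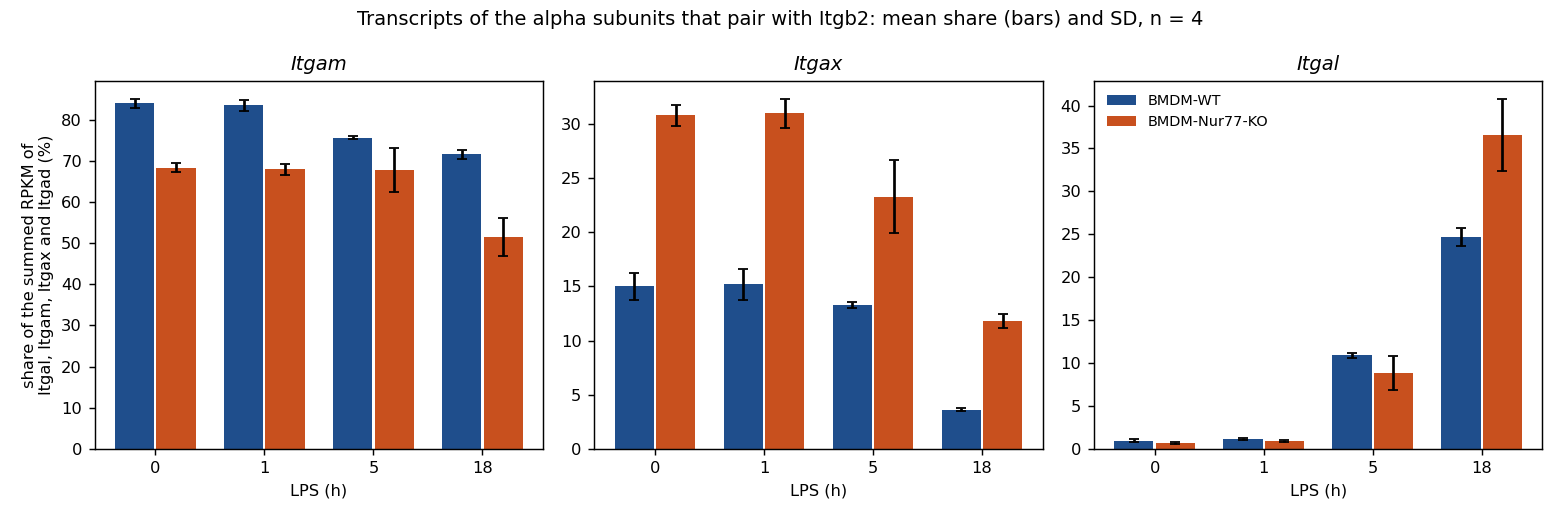
Mean share (bars, %) of Itgam, Itgax and Itgal in the summed RPKM of Itgal, Itgam, Itgax and Itgad against hours of LPS, with SD over 4 libraries; each panel has its own axis from 0. The Itgax share in BMDM-Nur77-KO was above that in BMDM-WT at every time, and the Itgal share grew from under 1.2% to 24.7% and 36.6%.

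Icam1, the immunoglobulin-family ligand of LFA-1 and of the CD11b receptor, was the member with the largest LPS rise in BMDM-WT, while in BMDM-Nur77-KO its largest log2 fold change of 4.91 stood beside 4.95 for Itgal. Before LPS its libraries held 29.3, 31.6, 31.3 and 36 RPKM in BMDM-WT and 33.0, 35.2, 36.8 and 38.2 RPKM in BMDM-Nur77-KO. At 1 h the ranges were 193 to 240 and 182 to 227 RPKM. At 5 h they were 940, 990, 1018 and 1045 RPKM in BMDM-WT and 747, 1166, 1199 and 1260 RPKM in BMDM-Nur77-KO. The peak level at 5 h overlapped between the genotypes, and the log2 fold changes over 0 h were 4.94 (adjusted p = 1.3e-24) and 4.91 (adjusted p = 1.4e-24). At 18 h Icam1 had come down to 202, 207, 189 and 211 RPKM in BMDM-WT but only to 330, 328, 320 and 278 RPKM in BMDM-Nur77-KO. The 18 h groups were separate, with a log2 fold change of 0.63 (SE 0.11, adjusted p = 5.3e-05). The difference in the 18 h response relative to 0 h was 0.46 with an adjusted p of 0.059, and 0.48 (adjusted p = 0.0023) without the 3 libraries that stood apart. The single low library at 5 h was knockout replicate 1, and without the 3 libraries the 5 h genotype difference was 0.27 (adjusted p = 0.009) in place of 0.13 (adjusted p = 0.37).

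Most members were called at 5 and 18 h of LPS, as were most genes tested. Of all 11181 genes, 7846 and 7427 were called at these times in BMDM-WT, and 7988 and 7778 in BMDM-Nur77-KO. At 1 h, 4 members were called higher in BMDM-WT (Icam1, Itga5, Itga4 and Itgav) and none lower, where 10.1% of all genes were called higher and 10.2% lower. In BMDM-Nur77-KO, Icam1 and Itga5 were called higher and no member lower, beside 6.9% and 5.39% of all genes. The Itga4 call at 1 h was near the threshold (log2 fold change 0.61, adjusted p = 0.049) and was lost with a replicate block (adjusted p = 0.065) and without any 1 of 6 of the 8 libraries. At 5 h Icam1, Itgal, Itga5, Itgav, Itga4 and Itgb1 were higher in both genotypes, with Itgb7 lower in BMDM-WT and Itgax and Itgb2 lower in BMDM-Nur77-KO. Removal of the GC trend ended the Itgb7 call, which went from -0.60 (adjusted p = 0.011) to -0.25 (adjusted p = 0.13). The corresponding shares of all genes were 30.1% higher and 40.1% lower in BMDM-WT, and 32.1% and 39.3% in BMDM-Nur77-KO. At 18 h Icam1, Itgal, Itga5 and Itgb7 were higher in both genotypes, while Itgax, Itgam, Itgav and Itga4 were lower in both genotypes and Itgb2 in BMDM-Nur77-KO. Shares over all genes were then 32.4% higher and 34.0% lower in BMDM-WT and 33.9% and 35.7% in BMDM-Nur77-KO. With a limit of 1 on the log2 fold change, 2, 5 and 5 members were called in BMDM-WT against 5.11%, 33.7% and 27.4% of all genes. In BMDM-Nur77-KO 2, 5 and 6 members were called against 4.52%, 32.6% and 32.0% of all genes. Without the 3 libraries that stood apart, further calls were Itgal (0.43, adjusted p = 0.0062), Itgam (0.14, adjusted p = 0.045) and Itgb1 (0.26, adjusted p = 0.0028) at 1 h and Itgb2 (-0.15, adjusted p = 0.0098) at 5 h in BMDM-WT. In BMDM-Nur77-KO they were Itgal (0.38, adjusted p = 0.033) and Itgb7 (0.53, adjusted p = 0.029) at 1 h. Calls over all genes at 1 h then grew as well, from 1132 higher and 1138 lower to 1967 and 2166 in BMDM-WT. In BMDM-Nur77-KO they grew from 772 and 603 to 1040 and 949. The comparisons with 0 h share their control libraries across the times.

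The response itself differed between the genotypes for no member at 1 h, when 0.0715% of all genes were called, or at 5 h, when 3.11% were. At an unadjusted p under 0.05, 1 member passed at 1 h (Itga4) and 2 at 5 h (Itgax and Itgb2). The share of all genes that passed this unadjusted limit is not given here. DESeq2 called no member at either time. Of all genes it called 11 higher and 14 lower at 1 h, and 259 and 237 at 5 h. Without the 3 libraries that stood apart, the 1 h difference of Itga4 was -0.79 (adjusted p = 0.026) in place of -0.80 (adjusted p = 0.42). In that setting 219 of all genes were called higher and 270 lower at 1 h, in place of 5 and 3. At 18 h, when 9.43% of all genes were called, edgeR called Itgam and Itgb2, and 5 members passed at an unadjusted p under 0.05. DESeq2 called 3 members, the third being Icam1 (adjusted p = 0.036), beside 687 higher and 585 lower of all genes. Without the 3 libraries 7 members were called at 18 h, beside 1030 higher and 729 lower over all genes in place of 599 and 455. The additions were Itgal (0.58, adjusted p = 0.015 in place of 0.17), Itga5 (0.49, adjusted p = 0.0047 in place of 0.25), Itgb1 (-0.34, adjusted p = 0.02 in place of 0.35), Itgb7 (0.82, adjusted p = 0.0072 in place of 0.091) and Icam1.

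Itga5, the fibronectin receptor chain, rose early and stayed up. It went from 18.3 to 22.5 RPKM before LPS to 61.4 to 70.9 RPKM at 1 h, 147 to 157 at 5 h and 92.1 to 114 at 18 h in BMDM-WT, with log2 fold changes of 1.69 (adjusted p = 2.3e-10), 2.87 (adjusted p = 2.2e-16) and 2.37 (adjusted p = 2e-14). In BMDM-Nur77-KO 3 of the 4 libraries at 18 h held 139 to 142 RPKM and replicate 4 held 91.0 RPKM. No genotype difference was called, and at 18 h the difference of 0.26 (adjusted p = 0.22) was 0.33 (adjusted p = 0.0055) without the 3 libraries that stood apart.

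Itga4 and Itgav were highest at 5 h, and by 18 h Itgav had fallen below its starting level. Itgav, a chain of the vitronectin and osteopontin receptors, held between 14.8 and 15.1 RPKM in BMDM-WT before LPS, 88.8 to 107 RPKM at 5 h and 7.08 to 10.9 RPKM at 18 h. The log2 fold changes were 2.63 (adjusted p = 1.5e-15) at 5 h and -0.84 (adjusted p = 1.5e-05) at 18 h, and BMDM-Nur77-KO gave 2.87 and -0.78. At 1 h Itgav was called between the genotypes, since BMDM-WT held 19.5, 19.5, 21.1 and 25.3 RPKM and BMDM-Nur77-KO 14.7, 13.8, 12.8 and 13.5 RPKM. The log2 fold change was -0.64 (SE 0.15, adjusted p = 0.0063) and no libraries overlapped. Itga4, the α chain of the VCAM1 receptor, held 21.3 to 28.2 RPKM before LPS and 92.5 to 122 RPKM at 5 h in BMDM-WT, which gave a log2 fold change of 2.06 (adjusted p = 2.8e-09). Knockout libraries held 23.0 to 43.5 RPKM and then 85.0 to 198 RPKM, the highest being the library with the strongest composition shift. Before LPS the genotype difference in Itga4 was 0.47 (adjusted p = 0.17), and 0.47 (adjusted p = 0.0098) when the spread was estimated without the 3 libraries that stood apart. At 18 h its log2 fold changes were -0.51 (adjusted p = 0.045) in BMDM-WT and -0.67 (adjusted p = 0.009) in BMDM-Nur77-KO, with groups that overlapped with 0 h. The BMDM-WT call was lost with DESeq2 (adjusted p = 0.062) and without any 1 of 6 libraries (adjusted p up to 0.13). Its gene span shares 624 bases with Cerkl, which had at most 367 counts in a library, and whether the counting used strand is not given in the sources used here.

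Itgb1, the β chain shared by Itga4 and Itga5, changed little. It held 204 to 225 RPKM before LPS and 339 to 369 RPKM at 5 h in BMDM-WT, and the 5 h log2 fold changes were 0.74 (adjusted p = 2.2e-06) in BMDM-WT and 0.73 (adjusted p = 2.4e-06) in BMDM-Nur77-KO. At 18 h it held 195 to 261 RPKM in BMDM-WT. In BMDM-Nur77-KO it held 277, 255, 262 and 219 RPKM before LPS and 203, 183, 197 and 278 RPKM at 18 h, where the highest library, replicate 4, was among those that stood apart in composition and the other 3 lay below every 0 h library. The log2 fold change was -0.26 (adjusted p = 0.051), and -0.41 (adjusted p = 8.1e-06) without the 3 libraries that stood apart. Before LPS the genotype difference of 0.27 (adjusted p = 0.14) passed the threshold (adjusted p = 0.0031) without the 3 libraries that stood apart, none of which was a 0 h library. In BMDM-WT the share of Itgb1 in the summed RPKM of Itgb1, Itgb2, Itgb3, Itgb5, Itgb7 and Itgb8 went from 32.0% ± 2.32 before LPS to 47.2% ± 1.31 at 5 h, beside 46.8% ± 1.34 for Itgb2, and was 35.3% ± 3.84 at 18 h. With transcript rows summed the Itgb1 share was 15.0%, 25.1% and 17.0% at these times and that of Itgb2 was 69.0% at 5 h, so that how near the 2 chains stood depended on the counting of transcripts.

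Itgb7, the β chain of gut-homing lymphocyte integrins, was low throughout. Its libraries held 2.26, 2.08, 2.85 and 2.67 RPKM in BMDM-WT before LPS and 1.08, 1.07, 0.909 and 1.41 RPKM in BMDM-Nur77-KO. The groups did not overlap, and the log2 fold change was -1.13 (SE 0.20, adjusted p = 0.00023). The differences at 1, 5 and 18 h were -0.57, -0.60 and -0.42 with adjusted p of 0.083, 0.057 and 0.078, and the 1 h libraries did not overlap. Without the 3 libraries that stood apart the 1 h difference passed the threshold (adjusted p = 0.0095). Itgb7 rose by 18 h to between 5.64 and 7.50 RPKM in BMDM-WT (log2 fold change 1.40, adjusted p = 3.1e-08) and between 3.06 and 6.40 RPKM in BMDM-Nur77-KO (2.12, adjusted p = 4.9e-11). Itgb7 lies on chromosome 15, 0.941 Mb from Nr4a1, and Itga5 lies 2.07 Mb from it. Of the 90 genes tested within 5 Mb of Nr4a1, 17.8% were called between the genotypes before LPS, against 12.7% of all genes. The shares were 11.1% against 6.54% at 1 h, 25.6% against 24.4% at 5 h and 25.6% against 21.7% at 18 h. The part of this position, close to the deleted gene, in the Itgb7 difference was not tested.

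Other adhesion genes give the setting of these members. Of 12 further α chains only Itga6 and Itga9 were expressed enough to be tested, and of 6 further β genes Itgb3, Itgb5 and Itgb8. Itga6, a laminin receptor chain, fell under LPS in BMDM-WT from 60.2 to 13.9 RPKM at 18 h and stood at 5.89 RPKM in the knockout cells (genotype log2 fold change -1.25, adjusted p = 4e-13). Itgb3, an Itgav partner, was higher in BMDM-Nur77-KO before LPS (6.51 against 4.41 RPKM, log2 fold change 0.57, adjusted p = 0.0046). Itgb5, another Itgav partner, fell from 54.5 to 25.4 RPKM by 18 h in BMDM-WT (log2 fold change -1.11, adjusted p = 8.4e-08). Itgb8, which with Itgav activates latent TGFβ, rose from near 0 to 2.98 RPKM at 5 h in BMDM-WT.

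Among ligands, 4 of 11 counter-receptors on cells were tested. Vcam1, the cellular ligand of the Itga4 receptor, stood above the wild-type level in knockout cells before LPS (12.0 against 5.33 RPKM, log2 fold change 1.18, adjusted p = 7.1e-10) and at 18 h (27.6 against 8.70 RPKM, log2 fold change 1.66, adjusted p = 1.1e-13). Of these 4 genes 1 was called higher and 0 lower before LPS, at 1 h and at 18 h, and 0 higher and 2 lower at 5 h, namely F11r (-0.99, adjusted p = 0.011) and Cd47 (-0.28, adjusted p = 0.0083). Of 18 matrix ligands and opsonins 10 were tested, and knockout cells had 4 higher and 2 lower before LPS. Fn1, which encodes fibronectin, stood at 23.3 RPKM in BMDM-Nur77-KO against 4.19 RPKM in BMDM-WT (log2 fold change 2.48, SE 0.12, adjusted p = 1.6e-15). C3, the source of the complement fragment bound by CD11b and CD11c receptors, rose from 9.01 to 568 RPKM in BMDM-WT by 18 h. Thbs1, which encodes thrombospondin, stood at 60.7 RPKM in knockout and 125 RPKM in wild-type cells at 1 h (log2 fold change -1.04, adjusted p = 0.00014), and at 127 and 66.4 RPKM at 18 h (0.93, adjusted p = 0.00015).

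Of 16 tested genes that switch integrins on or link them to actin, 1 was higher and 1 lower in knockout cells before LPS, 4 higher and 3 lower at 5 h, and 2 higher and 0 lower at 18 h. Rap1a (0.64, adjusted p = 0.048) and Apbb1ip (0.58, adjusted p = 0.0063) were higher at 5 h, with a wide spread in the knockout group. Rap1a stood at 47.6 ± 25.1 against 30.7 ± 2.74 RPKM in BMDM-WT, and Apbb1ip at 188 ± 57.7 against 126 ± 4.52 RPKM. That knockout group holds the library with the strongest composition shift, whose part in these differences was not tested. Cytip, which restrains cytohesin and thereby adhesion through LFA-1, stood at 1.57 RPKM in knockout cells at 18 h against 0.369 RPKM in wild-type cells (log2 fold change 2.08, adjusted p = 6.6e-09). Both were low levels, and in BMDM-WT Cytip had fallen from 3.92 RPKM before LPS (log2 fold change -3.41, adjusted p = 1.2e-15). Among 26 adhesion kinases and adaptors tested, 19 were higher and 6 lower at 5 h of LPS in BMDM-WT, including Src (log2 fold change 4.94) and Zyx (3.03), beside 30.1% higher and 40.1% lower over all genes. Between the genotypes 4 were higher and 2 lower before LPS, and 2 higher and 8 lower at 5 h. At 18 h 2 were higher and 3 lower, Fgr among the latter (log2 fold change -0.96, adjusted p = 7.2e-07). The genotype counts of these lists stand beside 708 higher and 709 lower of 11181 genes before LPS. Over all genes 1530 were higher and 1196 lower at 5 h, against 1313 higher and 1113 lower at 18 h.

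Across the 32 libraries the genes whose log2 CPM followed a member most closely were picked by Pearson's r, as a description, since libraries of a group and shifts in composition are shared by all genes. Itgax was followed by Fn1 (r = 0.986), Folr2 (0.983) and Mmp9 (0.980), Itgal by Irf7, Tapbp and Lgals9 (each 0.994), and Icam1 by Tagap (0.992), Gpr84 (0.987) and Edn1 (0.985). Itgam was followed by Pcna (0.970), Adk and Cd93, Itga5 by Rnf19b (0.986), Slfn2 and Stk40, and Itgb7 by Siglec1 (0.953), Cant1 and Pld4. The rank correlation (Spearman's rho) with Itgam was lower, at 0.658 for Pcna, 0.789 for Adk and 0.885 for Cd93. For the AT-rich members the nearest genes were Hipk3, Cdv3 and Efr3a for Itga4, Swap70, Sh3bgrl2 and Bmp2k for Itgav and Morf4l2, Eif2s1 and Erbin for Itgb1, at r between 0.973 and 0.988. Itgb2 was followed less closely, by Gpt2 (0.930), Rpia (0.891) and Kcnj10 (0.877). Among the members Itga4 and Itgb1 had r = 0.966 and, over the deviations from the group means alone, 0.920, while Itga5 and Itgb1 had 0.305 and -0.916 by the same measures.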

How the data were processed

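RNA-seq libraries of 32 BMDM cultures, 4 in each of 8 groups of genotype and LPS time, were analysed. According to the study's methods, strand-specific KAPA mRNA HyperPrep libraries were sequenced as read pairs, called with CASAVA 1.8.2, aligned to mm10 with HISAT2 2.1.0 and filtered on mapping quality, and the authors summed tags per RefSeq transcript with HOMER, without adjustment. The table deposited by the authors holds estimated counts, not normalized, in which each mate adds 0.5 and 28.6% of the values are not whole. Whether the tag summing used strand is not given in the sources used here.

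RefSeq IDs were matched to symbols in GRCm38.p6 (42198 of 42361 transcripts) or GENCODE (70). The 93 rows without a symbol, 0.233% to 1.37% of tags, were left out. The row with the highest mean count per gene was kept, its counts were rounded, and genes over a mean of 1 RPKM in at least 1 group were tested (11181 of 25067) with edgeR 4.0.16 (R 4.3.3) on all libraries with TMM scaling, 1 mean per group and Benjamini-Hochberg adjustment. RPKM used TMM-scaled library sizes and the RefSeq or GENCODE length. Standard errors were derived from each log2 fold change and its F statistic, and 95% intervals from these errors under a normal distribution. The intervals are therefore approximate, and near the threshold they can disagree with the test. Shares and correlations carry no test. DESeq2 1.42.0, other scalings, filters, libraries left out, a replicate block and removal of GC or length trends (lowess span 0.3) were tried. The fit was tested on simulated data.

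The members and the gene lists were chosen with earlier results of these data known. Named genes were all members, Nr4a1, up to 4 genes per list and direction of comparison with the largest called log2 fold change, and the 3 genes most correlated with each member over libraries. Promoters came from RefSeq, with 8 of 10 members found. Protein sequences were not used here. A list of the adhesion genes is not reported here.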

Additional observations from a re-analysis of the deposited data

Results flagged for a closer look

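Among 80 member-by-group sets of 4 libraries, 7 held a library far from the other 3, where chance gives about 4. In replicate 3 of BMDM-WT at 5 h, Itgam held 241 RPKM (225 to 227 in the others), Itga4 122 RPKM (92.5 to 96.7) and Itgav 107 RPKM (88.8 to 90.0). That library did not stand apart in base composition. In replicate 1 of BMDM-Nur77-KO at 1 h, Itgam held 270 RPKM (group mean 253 ± 11.5). In replicate 3 of BMDM-WT at 18 h, Itga4 held 25.3 RPKM (13.6 to 14.4). In replicate 4 of BMDM-Nur77-KO at 18 h, Itga5 held 91.0 RPKM (139 to 142) and Itgav 9.92 RPKM (6.32 to 6.94). The last 2 libraries are among the 3 with the shift in base composition, and its part in these values was not tested.

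The response to 18 h of LPS differed between the genotypes for Itgam, by -0.66 on the log2 scale, and for Itgb2, by -0.42. Both were tested as an interaction in edgeR and came out in the same direction, with adjusted p under the threshold, under every alternative run.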

How the results depend on the processing

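No called change of a member turned in direction under the alternatives run, and each member called between the genotypes stayed past the threshold in all of them, apart from a size limit. The shift of base composition in 3 libraries mattered most. With these libraries left out together (chosen after seeing the data), members called between the genotypes numbered 5, 3 and 5 at 0, 5 and 18 h in place of 3, 1 and 3. Calls over all genes grew as well at 0 h, from 708 higher and 709 lower to 1522 and 1758. They also grew at 18 h, from 1313 and 1113 to 1650 and 1295, and fell at 5 h, from 1530 and 1196 to 1162 and 1044. LPS at 1 h then called 7 members in BMDM-WT and 4 in BMDM-Nur77-KO in place of 4 and 2. The interactions at 1 and 18 h called 1 and 7 members in place of 0 and 2. For all genes, LPS at 1 h then gave 1967 higher and 2166 lower in BMDM-WT, in place of 1132 and 1138. In BMDM-Nur77-KO it gave 1040 and 949, in place of 772 and 603. The interactions gave 219 and 270 genes at 1 h, in place of 5 and 3, and 1030 and 729 at 18 h, in place of 599 and 455. Replicate 4 of the 5 h knockouts leaned the other way. With it also left out, the member counts were the same except for 4 at 5 h between the genotypes. Itgb7 was added there (-0.64, adjusted p = 0.046). Removing the GC trend, also chosen after seeing the data, gave 5, 3 and 6 between the genotypes at 0, 5 and 18 h, 8 (BMDM-WT) and 4 (BMDM-Nur77-KO) for LPS at 1 h, and 1, 1 and 6 for the interactions at 1, 5 and 18 h. It ended the call of Itgb7 at 5 h of LPS in BMDM-WT (-0.25, adjusted p = 0.13). With the GC trend removed, 918 of all genes were called higher and 747 lower between the genotypes at 0 h. The numbers were 1740 and 1464 at 5 h and 1839 and 1415 at 18 h. For LPS at 1 h they were 1384 and 1009 in BMDM-WT and 1023 and 748 in BMDM-Nur77-KO. The interactions gave 4 and 6 at 1 h, 341 and 378 at 5 h (in place of 194 and 154) and 882 and 730 at 18 h. Fitting only the libraries compared gave 5 members at 0 h and 5 at 1 h between the genotypes, 7 for LPS at 1 h in BMDM-WT and 1 for the interaction at 1 h. That fit called 1240 of all genes higher and 1172 lower at 0 h, and 867 and 857 at 1 h. It called 2050 and 1729 for LPS at 1 h in BMDM-WT, and 93 and 128 for the interaction at 1 h. Between the genotypes at 5 h, DESeq2, its size factors in edgeR, summed transcripts and removal of the length trend each gave 2 members in place of 1. In that order they called 1808, 1690, 1528 and 1508 of all genes higher, and 1251, 1083, 1173 and 1290 lower. A size limit of 1 gave 2 and 5 for LPS at 1 and 18 h in BMDM-WT and 5 for LPS at 5 h in BMDM-Nur77-KO, in place of 4, 8 and 8, by its construction. The median of all genes moved by at most 0.095 with DESeq2 and by up to 0.12 with the GC trend removed or no filter on low counts and 0.11 with the length trend removed.

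Leaving out each library in turn gave 3, 3, 1 to 4 and 3 to 5 members called between the genotypes at 0, 1, 5 and 18 h. LPS gave 2 to 4, 7 to 8 and 7 to 8 in BMDM-WT and 2, 8 and 8 to 10 in BMDM-Nur77-KO, and the interactions gave 0, 0 to 1 and 2 to 4. At 5 h the count was 3 without replicate 1 of BMDM-Nur77-KO, 4 without its replicate 3 or 4 and 2 without replicate 2 of BMDM-WT. At 18 h it was 5 without replicate 4 of BMDM-Nur77-KO, and the interaction count was then 4. The 5 h interaction count was 1 without knockout replicate 4 of that time (Itgax -0.47, adjusted p = 0.044). For LPS at 1 h in BMDM-WT it was 2 without replicate 4 at 1 h, where Itgav gave 0.42 (adjusted p = 0.078). The call of Itga4 in BMDM-WT was lost on leaving out any 1 of 6 libraries at 1 h and any 1 of 6 at 18 h (adjusted p up to 0.18 and 0.13), at 1 h also with transcripts summed and at 18 h also with DESeq2 (adjusted p = 0.062) or its size factors (adjusted p = 0.068). In BMDM-Nur77-KO its call at 18 h was lost without replicate 1 at 0 h (-0.51, adjusted p = 0.054). The cause was not tested. Calls over all genes under each omission are not given here. The member counts of this paragraph are therefore not read as particular to the members.

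Replicate numbers were not used as pairs in the main fit. Correlations of same-numbered libraries, over deviations from the group means, ran from -0.377 to 0.262 between the genotypes at the same time. Over all 112 same-numbered pairs they ran from -0.704 to 0.465, with 29 over 0.1, and 7 of 32 libraries correlated best with their own number. Shifts in composition enter these values, which therefore cannot exclude that a number marks a shared source across the times. A replicate block left 129 of 130 member results on their side of the threshold and gave 3, 3, 1 and 3 members called between the genotypes, with the call of Itga4 at 1 h in BMDM-WT lost (adjusted p = 0.065).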
